A study of Homo sapiens with 12 samples.

Results

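The clustered histone genes encode the linker histone H1 and the core histones H2A, H2B, H3 and H4, the proteins around which DNA is wrapped. They were taken here as the rows of the raw count table whose symbol was H1-1 to H1-6 or began with H2AC, H2BC, H3C or H4C followed by a number, which gave 69 of 41878 rows. The cells were HEK293T, an established human embryonic kidney line that takes up plasmids readily. They carried either 1 µg of control vector or 1 µg of a plasmid for TRPML3, the endolysosomal cation channel encoded by MCOLN3, delivered with Effectene. They were then either fed with 10% serum or left without serum for 4 h, so the groups were vector fed, vector starved, TRPML3 fed and TRPML3 starved. Polyadenylated RNA was sequenced in 12 libraries, 3 labelled biological replicates in each group. Each p-value judges a difference between groups against the spread between these replicates, estimated over all 4 groups together.

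Most messenger RNAs end in a poly(A) tail. Messenger RNAs of the clustered histone genes, which are made mainly while DNA is copied, instead end just after a short hairpin, the histone stem-loop, which is bound by SLBP and cut with the help of the U7 snRNP. Selection for poly(A) therefore recovers them poorly. A minority of these genes can also run past the stem-loop to an ordinary polyadenylation signal. The replacement histones, such as H3-3B and H2AZ1, are made throughout the cell cycle and carry poly(A) tails.

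Library totals ran from 33101540 to 43700547 counts, and 3 counts, the smallest number taken as detection, were 6.86e-06% to 9.06e-06% of a library. MCOLN3 took 0.000934% to 0.00185% of the counts in the 6 vector libraries and 0.505% to 5.52% in the 6 TRPML3 libraries, as labelled. All 8 listed genes of HEK293T cells (such as VIM, KRT8 and LIN28B) had counts in every library, from 0.839 CPM upward, where CPM is the count scaled to a common library total (here with TMM factors). The 8 listed genes of blood, endothelium and liver summed to 0.488 to 3.08 CPM per library.

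Stem-loop sequences are shown because they mark which RNAs can be processed without a tail. Transcript models of GENCODE release 29 (GRCh38) were found for 63 of the 69 genes, and 26 had the stem-loop inside an annotated transcript. Many other models, such as those of H1-2, H2AC17, H3C1 and H4C12, stop 3 bases after the coding region. For such genes the missing match does not show that the stem-loop is absent. The stem-loop came in 5 forms, shown as DNA letters in the direction of transcription. The 16-base hairpin is in capitals, with 5 bases on either side. The first form was in 13 genes (H2A, H2B and H3), the second in 5 H4 genes, the third in 3 H4 genes, the fourth in 4 genes (H2BC4, H2BC5, H2BC7 and H3C8) and the last in H2AC11.
H2AC6, chr6:26124664-26124689, plus strand: ccaaaGGCTCTTTTCAGAGCCcccct
H4C8, chr6:26285126-26285151, minus strand: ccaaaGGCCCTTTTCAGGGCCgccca
H4C14, chr1:149833027-149833052, plus strand: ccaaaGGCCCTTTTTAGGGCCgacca
H2BC4, chr6:26123467-26123492, minus strand: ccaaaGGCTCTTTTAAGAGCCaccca
H2AC11, chr6:27133510-27133535, plus strand: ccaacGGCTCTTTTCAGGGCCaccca

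In 19 genes an annotated transcript ran past the stem-loop or the coding region and ended behind the letters AATAAA or ATTAAA, and these genes held 49.6% of all clustered histone counts. Another 40 genes had models that ended near the stem-loop or the coding region, and held 35.5%. Many of these models stop 3 bases after the coding region, so they do not show where the RNA ends. A further 4 had extended models without such letters near the end (2.03%), and 6 were not matched in GENCODE 29 (12.9%). The last 30 bases of 4 extended transcripts are shown because these genes are described below, with the signal in capitals. In H2AC6 the end lay 1128 bases past the stem-loop, in H2BC21 1729, in H2BC18 1479 and in H4C8 630.
H2AC6, chr6:26139087-26139116, plus strand: tAATAAAaggtaatgcaaagggagaggaaa
H2BC21, chr1:149884459-149884488, minus strand: gttattAATAAAgttaccaattaatttaaa
H2BC18, chr1:149810406-149810435, minus strand: acacccaATTAAAagatataaaatgcggta
H4C8, chr6:26281055-26281084, minus strand: aggtgAATAAAatcaggtcactcttctgct

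Promoters from 250 bases before to 50 after the start were taken from RefSeq (GRCh38.p14), where 64 of the genes had one (68 sequences). Searched on both strands, the TATA box letters TATAAA were in 66.2% of these and in 11.5% of all 35116 promoters. CCAAT was in 85.3% against 34.6%: every H1, H2A, H2B and H3 promoter held it and 23.1% of the H4 promoters did. The octamer ATTTGCAT was in 39.7% against 1.77%, with 68.8% of H2A and 75% of H2B promoters holding it. AAACACA, the H1 box, was in every H1 promoter and in 5.64% of all promoters. None of these letter strings contains another. A match is a string of letters and not a measured site. The promoters below are shown because the values that follow turn on these genes: H2AC6 was lower in every TRPML3 library than in every vector library, H2BC26 shares its promoter region with H2AC25, H4C8 had no match to any of the 4 strings, H1-2 held the most counts, and H3C2 was highest in replicate 3 of both vector groups. Matches are in capitals.
H2AC6, chr6:26123922-26124221, plus strand: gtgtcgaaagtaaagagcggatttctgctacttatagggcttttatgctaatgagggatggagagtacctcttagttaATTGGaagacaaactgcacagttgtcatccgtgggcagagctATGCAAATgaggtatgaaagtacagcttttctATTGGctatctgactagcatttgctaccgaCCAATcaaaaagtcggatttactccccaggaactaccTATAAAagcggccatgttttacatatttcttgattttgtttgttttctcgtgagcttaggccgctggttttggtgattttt
H2BC26, chr1:228457853-228458152, plus strand: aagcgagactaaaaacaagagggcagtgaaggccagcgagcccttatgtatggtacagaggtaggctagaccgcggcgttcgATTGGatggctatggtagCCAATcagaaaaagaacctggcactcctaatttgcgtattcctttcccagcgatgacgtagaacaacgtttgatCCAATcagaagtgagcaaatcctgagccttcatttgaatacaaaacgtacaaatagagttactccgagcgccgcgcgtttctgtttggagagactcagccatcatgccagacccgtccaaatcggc
H4C8, chr6:26285485-26285784, minus strand: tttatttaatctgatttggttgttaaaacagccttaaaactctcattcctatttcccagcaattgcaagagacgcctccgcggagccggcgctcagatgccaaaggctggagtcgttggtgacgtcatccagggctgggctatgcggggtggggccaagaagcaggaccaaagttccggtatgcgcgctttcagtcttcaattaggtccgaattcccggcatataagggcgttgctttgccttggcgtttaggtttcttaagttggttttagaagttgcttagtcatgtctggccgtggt
H1-2, chr6:26056421-26056720, minus strand: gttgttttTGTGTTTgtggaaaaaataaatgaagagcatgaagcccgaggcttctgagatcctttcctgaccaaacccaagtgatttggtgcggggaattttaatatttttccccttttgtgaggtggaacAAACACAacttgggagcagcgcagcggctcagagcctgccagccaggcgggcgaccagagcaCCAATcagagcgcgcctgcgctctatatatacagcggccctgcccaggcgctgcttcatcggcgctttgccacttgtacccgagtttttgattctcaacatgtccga
H3C2, chr6:26032050-26032349, minus strand: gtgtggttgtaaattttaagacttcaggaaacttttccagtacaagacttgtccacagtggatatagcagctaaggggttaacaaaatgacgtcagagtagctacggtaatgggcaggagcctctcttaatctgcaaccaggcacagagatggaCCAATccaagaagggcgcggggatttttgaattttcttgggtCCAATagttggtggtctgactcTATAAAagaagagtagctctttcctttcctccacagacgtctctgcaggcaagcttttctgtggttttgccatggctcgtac

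By RefSeq coordinates (GRCh38.p14), 55 of the genes lay on chromosome 6 between 25726063 and 27893891 and held 64.7% of the clustered histone counts. Another 11 lay on chromosome 1 between 149782689 and 149887965, with 28.1%. H2AC25 and H2BC26 lay on chromosome 1 between 228457364 and 228458558 (6.06%), and H4C16 lay alone on chromosome 12 between 14770720 and 14771131 (1.16%). In 12 pairs, genes on opposite strands had overlapping promoter windows. The starts of H2AC25 and H2BC26 were 230 bases apart, and those of H2BC4 and H2AC6 246.

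Together the 69 genes took 0.00508% to 0.0172% of a library, a 3.38-fold range. In raw CPM, scaled by the library total alone, they summed to 90.6, 72.3 and 171.7 in replicates 1, 2 and 3 of vector fed cells, and the starved vector libraries had 74.8, 132.0 and 141.0. TRPML3 cells had 50.8, 82.0 and 79.3 when fed and 97.2, 99.5 and 98.9 when starved. The 3 TRPML3 starved libraries were nearly equal and all lay above the 3 TRPML3 fed libraries, while both vector groups were spread widely. Group means were 111.5 ± 52.9 (SD, n = 3), 115.9 ± 35.9, 70.7 ± 17.3 and 98.5 ± 1.19 in that order. The 95% Wilson interval of the highest library, 0.0167% to 0.0176%, and that of the lowest, 0.00486% to 0.00530%, cover counting error only. In such bulk samples, fewer cells that make an RNA and less of it per cell cannot be told apart. The sum gets no p because the genes were chosen together.

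**Figure D1:**
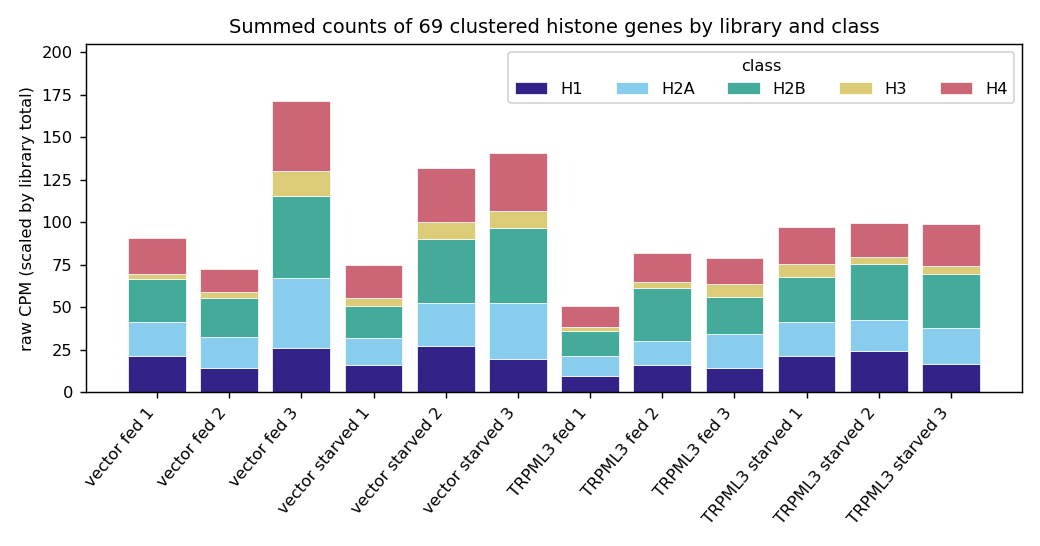
Summed raw CPM, scaled by the library total alone (vertical axis) of the 69 clustered histone genes, stacked by histone class, in each of the 12 libraries (horizontal axis). The bars run from 50.8 in TRPML3 fed replicate 1 to 171.7 in vector fed replicate 3, and the 3 TRPML3 starved bars lie between 97.2 and 99.5.

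Counts were unevenly divided among the genes. Of 44442 clustered histone counts, H2B genes held 30.02%, H4 23.0%, H2A 21.7%, H1 19% and H3 6.29%, and the 10 largest genes held 58.3%. H3 varied most between libraries, from 2.46 to 14.7 raw CPM, a 5.97-fold range, while H1 varied 2.80-fold. H1 was 14% of the clustered histone counts in vector starved replicate 3, where its level of 19.7 raw CPM was near its 12-library median of 18.2.

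Of the 69 genes, 42 had at least 1 count in all 12 libraries. Of the 42, H2AC11, H2AC13 and H2AC20 reached 3 counts in only 11 libraries and H4C4 in only 10. Another 9 were at 0 in all: H1-1, H2AC1, H2BC1, H2BC10, H3C3, H3C8, H3C11, H4C6 and H4C7. A count of 0 leaves room for an expected count of up to about 3 in a library, at 95% confidence and for counting error only. H2AC1 and H2BC1 belong with H1-6 to the histones known from the germline, and H1-6 had 3 counts, all in TRPML3 starved replicate 1. The expression filter kept 44 of the genes for testing, 3 H1, 13 H2A, 11 H2B, 6 H3 and 11 H4, and the 16 other genes with counts had at most 110 counts in all.

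The linker histone H1-2 held the most counts, 5352 in all. It was at 15.3, 11.5 and 10.4 CPM fed and 13.0, 19.01 and 10.2 starved with vector, and at 5.42, 10.6 and 9.13 fed and 13.1, 15.2 and 10.7 starved with TRPML3. Its 3 TRPML3 starved libraries lay above the 3 TRPML3 fed ones. The third tested linker histone, H1-3, had a mean of 0.751 CPM.

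H1-4 was at 3.82, 1.67 and 14.2 CPM fed and 2.84, 6.44 and 8.26 starved with vector, and at 3.86, 4.53 and 5.35 fed and 7.80, 9.67 and 6.63 starved with TRPML3. Its highest and its lowest library were both vector fed. The core histone gene H4C5 was at 5.19, 2.06 and 15.6 CPM in vector fed, and between 1.86 and 8.26 in the other groups. H2BC18 reached 12.9 CPM in vector fed replicate 3, against 2.20 and 1.58 in replicates 1 and 2.

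Among H2A genes, H2AC6 had the highest mean CPM. It was at 6.53, 5.09 and 5.88 CPM fed and 5.19, 6.23 and 5.63 starved with vector, and at 3.53, 2.03 and 4.63 fed and 2.63, 4.61 and 3.07 starved with TRPML3. Each of the 6 TRPML3 libraries was below each of the 6 vector libraries, which held for 0.0943% of all genes tested. H2AC25 followed with 1.37 to 3.68 CPM. H2AC18 and H2AC19 differed by at most 4 counts in any library (1213 and 1215 in all), so their reads may have been divided between near-identical copies and each value is uncertain.

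Of the H2B genes, H2BC21 was at 5.41, 6.88 and 6.83 CPM fed and 4.36, 7.67 and 7.61 starved with vector, and at 2.11, 5.83 and 4.04 fed and 5.52, 5.12 and 4.46 starved with TRPML3. Every pair of groups overlapped. H2BC15 ranged from 2.51 to 8.30 CPM, H2BC5 from 2.23 to 8.71 and H2BC12 from 0.110 to 2.72. H2BC26 was at 4.06, 3.86 and 3.13 fed and 2.94, 4.04 and 4.79 starved with vector, and at 1.44, 2.79 and 2.54 fed and 2.04, 2.55 and 3.68 starved with TRPML3.

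H3 genes held the fewest counts. H3C6, the highest by mean, ranged from 0.208 to 4.85 CPM, and H3C2 was at 0.288 CPM in TRPML3 fed replicate 1 and 3.79 and 3.58 in replicate 3 of vector fed and vector starved. H3C10 ranged from 0.343 to 1.598 CPM. H3C14 and H3C15 have 1 identical GENCODE transcript of 1656 bases and differed by at most 1 count in any library, so they are also uncertain.

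H4C5, H4C15 and H4C14 had the highest mean CPM of the H4 genes. H4C15 was at 4.23, 3.86 and 4.71 CPM fed and 5.09, 6.69 and 5.29 starved with vector, and at 2.54, 3.36 and 3.68 fed and 5.23, 4.64 and 4.81 starved with TRPML3. Both starved groups lay above the fed group of the same plasmid. H4C14 followed it with 2.33 to 6.42 CPM. The pair shares an identical transcript of 610 bases and differed by at most 11 counts in any library, so its 2 sets of values are not independent.

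H4C8 was at 1.78, 0.617 and 2.24 CPM fed and 1.22, 2.38 and 2.18 starved with vector, and at 0.504, 0.599 and 0.489 fed and 1.78, 2.28 and 1.42 starved with TRPML3. The 3 TRPML3 fed libraries were the lowest of the 12, and vector fed replicate 2 lay just above them.

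**Figure D2:**
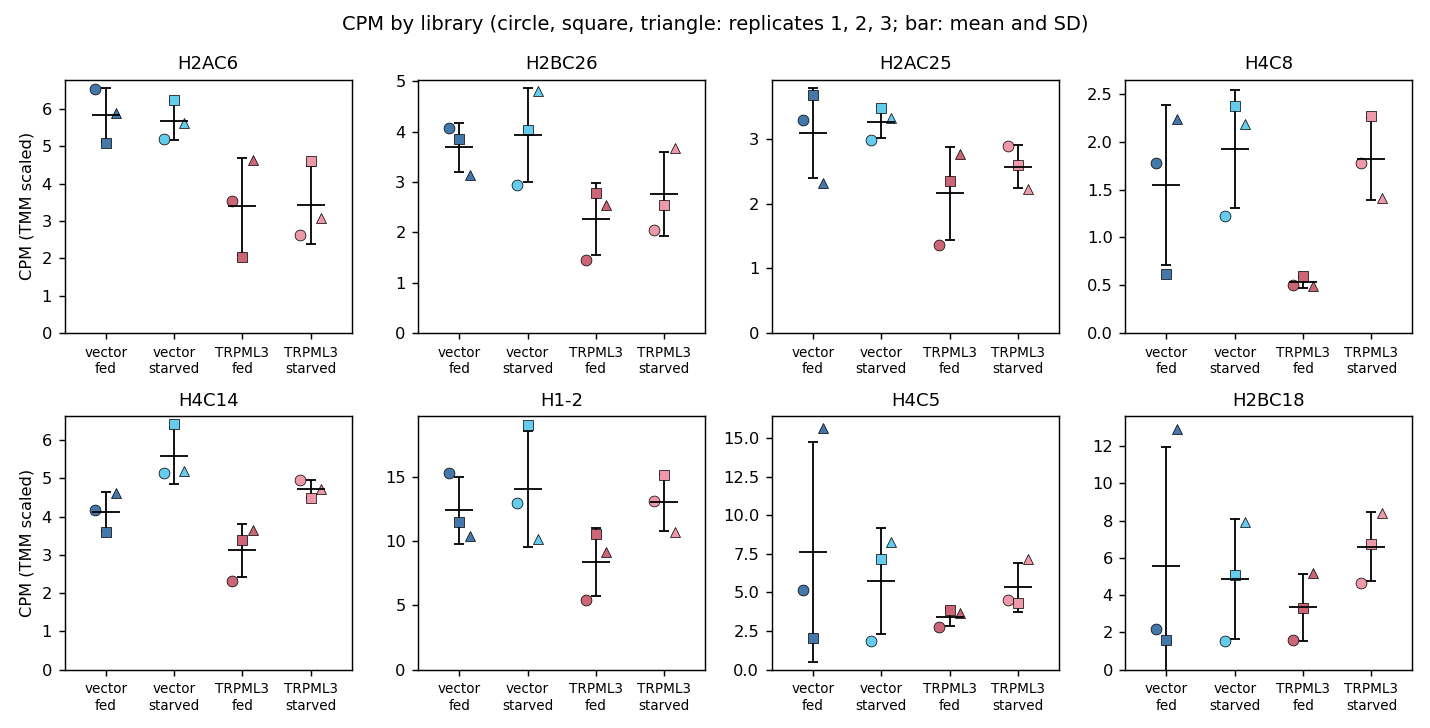
TMM-scaled CPM (vertical axis) of 8 clustered histone genes in the 4 groups (horizontal axis). Circles, squares and triangles are replicates 1, 2 and 3, and bars give the mean and SD (n = 3, with the lower bar of H2BC18 in vector fed passing 0). H2AC6 is lower in all 6 TRPML3 libraries than in all 6 vector libraries, while H4C5 and H2BC18 have 1 vector fed library far above the others.

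The libraries differed in a way the groups do not describe. Of the 44 genes tested, 24 had their highest CPM in vector fed replicate 3, as did 8.28% of all 18030 genes tested. A further 8 were highest in vector starved replicate 3 (10.7% of all genes), and 16 were lowest in TRPML3 fed replicate 1 (8.71% of all genes). Over 24 genes with a mean of at least 1 CPM, the CPM of vector fed replicate 3 divided by the mean of replicates 1 and 2 had a median of 2.52 and ran from 0.667 (H2AC25) to 6.84 (H2BC18), and 15 genes were above 2. Among 14120 genes of that level, the median was 0.986 and 9.6% were above 2. The same ratio had a median of 1.47 in vector starved, 1.28 in TRPML3 fed and 1.00 in TRPML3 starved.

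Other RNAs were also high in that library. Known non-polyadenylated RNAs, a list of 26 small nuclear and related RNAs such as 7SK (25 had a row), summed to 306.0 raw CPM in vector fed replicate 3 and to 139.4 and 23.0 in replicates 1 and 2. They summed to 224.4 in vector starved replicate 3, to 35.0 and 60.2 in its other replicates, and with TRPML3 to 36.0, 92.9 and 62.2 fed and 142.1, 152.2 and 96.9 starved. The 13 mitochondrial genes summed to 5209 to 38730 raw CPM and were highest in replicate 3 of each group, which vector fed replicate 3 led. RN7SK, the gene of 7SK, was at 22.2, 7.84 and 83.6 CPM in vector fed. The part of these RNAs in the histone values was not tested.

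The genes least raised in that library came from H1, H2A, H2B and H4. Of the 24 genes with a mean of at least 1 CPM, the 9 at or below a ratio of 2 were H2AC25, H1-2, H2BC26, H2AC6, H2BC21, H4C15, H4C14, H2BC15 and H4C8, from 0.667 to 1.86, and the 15 above it ran from 2.36 to 6.84. The 7 genes known to give polyadenylated forms (H1-2, H2AC6, H2BC4, H2BC5, H2BC11, H2BC12 and H2BC21) held 38.5%, 41.2% and 21.9% of the clustered histone counts in vector fed replicates 1, 2 and 3. In raw CPM they were at 34.9, 29.8 and 37.5, while all other clustered histone genes were at 134.2 in replicate 3, the highest of the 12 libraries. The 7 were not alike in that library: H1-2, H2AC6 and H2BC21 had ratios of 0.775, 1.01 and 1.11, and H2BC5, H2BC11, H2BC4 and H2BC12 had 2.36, 3.55, 4.38 and 6.17 (H2BC12 at a mean of 0.999 CPM). The 7 were not divided from the others by annotated end. H1-2 and H2BC12 had only models that ended near the stem-loop or the coding region. Outside the 7, H2BC18, H4C5, H4C14 and H2BC15 had extended models with a terminal signal. Among the 24 genes, the 13 with such models had a median ratio of 2.36 (1.01 to 6.84). The 5 whose models ended near the stem-loop or the coding region had 5.19 (0.775 to 5.62). Across all libraries the 7 genes varied 2.78-fold and the others 3.82-fold. Replacement histones varied 1.44-fold, from 1914 to 2765 raw CPM.

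**Figure D3:**
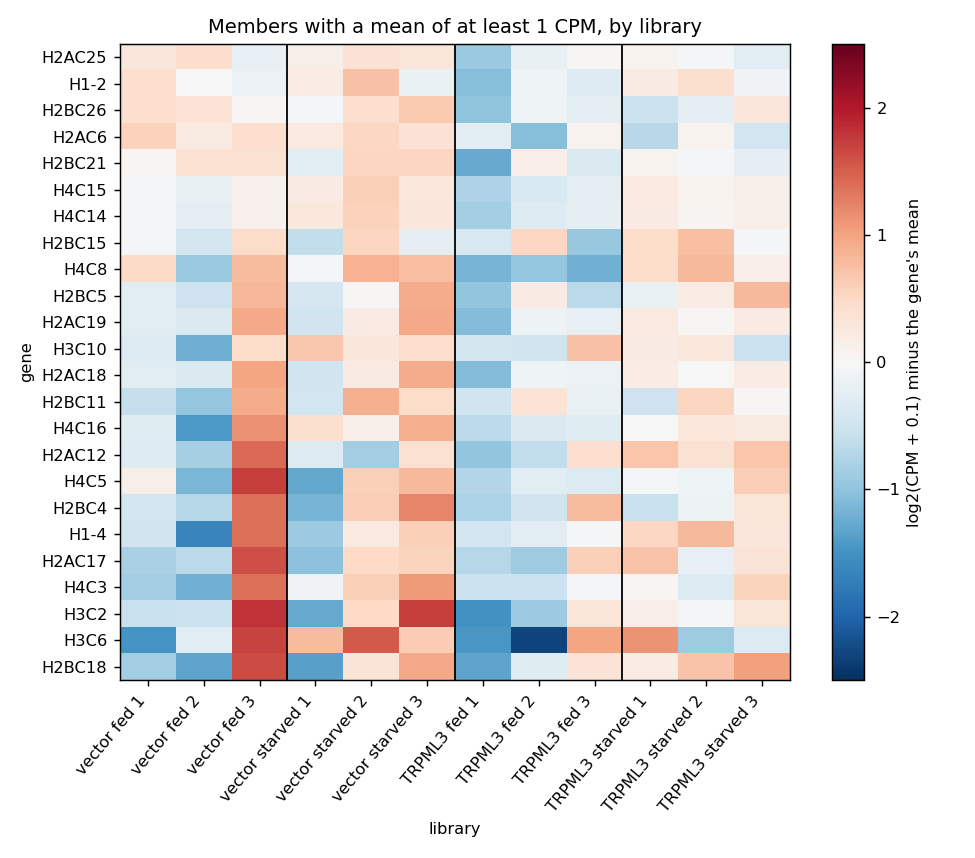
Log2(CPM + 0.1) of 24 clustered histone genes with a mean of at least 1 CPM (rows) in 12 libraries (columns), each minus the gene's own mean over the libraries. Vector fed replicate 3 is above the gene's mean for all but a few rows, and TRPML3 fed replicate 1 is below it in nearly all.

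Promoter letters were set beside this ratio as a description, with no test, and the ratio of 2 was chosen after the values were seen. Among the same 24 genes, 2 of the 9 at or below 2 (H2BC21 and H2AC6) had TATAAA in the promoter window. Of the 15 above 2, 13 had a promoter sequence and 11 of these held TATAAA, H4C5 and H2BC18 being the exceptions. These counts are not of independent genes. The near-identical H2AC18 and H2AC19 are both among the 11, and H4C14 and H4C15 are both at or below 2 without TATAAA. H2AC25 and H2BC26, which share a promoter region without TATAAA, had ratios of 0.667 and 0.789. Facing genes did not always have like ratios: H2BC21 had 1.11 and H2AC20 11.9, and H2AC6 had 1.01 and H2BC4 4.38. H2BC11 and H2AC11 had 3.55 and 3.49. H2AC20 and H2AC11, at means of 0.940 and 0.958 CPM, lay below the level set for the 24 genes. H2AC20 was at 0.0275, 0.343 and 2.21 CPM in vector fed replicates 1, 2 and 3. In replicate 1 a single count is 0.0275 CPM, so the ratio of H2AC20 is uncertain.

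**Figure D4:**
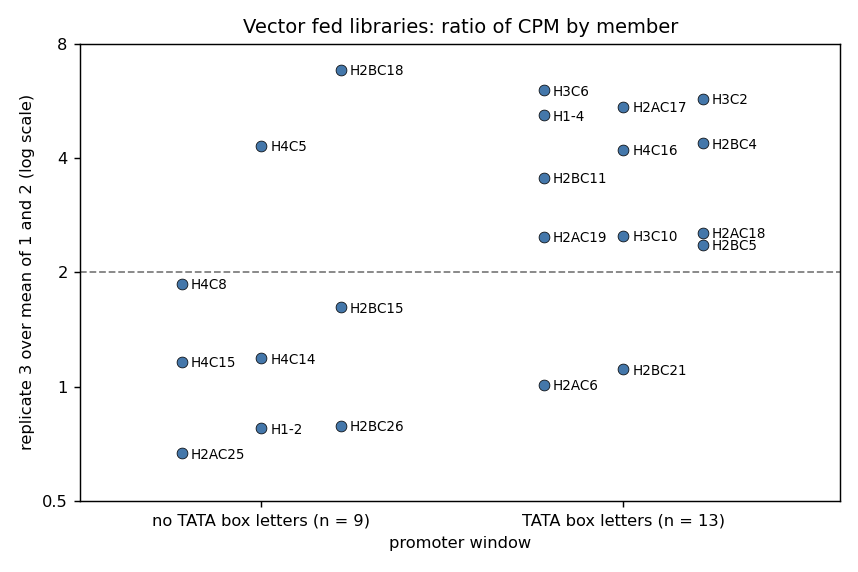
Ratio of CPM in vector fed replicate 3 to the mean of vector fed replicates 1 and 2 (vertical axis, log scale) for 22 clustered histone genes with a promoter sequence, by whether the window holds TATAAA (horizontal axis, sideways spread only for legibility). The dashed line is a ratio of 2, and 11 of the 13 genes with the letters lie above it, as do 2 of the 9 without. Near-identical copies are drawn as separate points.

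TRPML3 was first compared with vector in fed cells, which asks how the channel alters the transcriptome with serum present. No clustered histone gene passed an adjusted p of 0.05 (edgeR quasi-likelihood, Benjamini-Hochberg over 18030 genes), where 0.0111% of all genes did, and 2 were at an unadjusted p under 0.05, both lower, against 2.21% of all genes. The H4 gene H4C8 had a log2 fold change of -1.53 ± 0.47 (SE, edgeR Benjamini-Hochberg adjusted p = 1). H2AC6 had -0.78 ± 0.34 (edgeR adjusted p = 1). Libraries did not overlap for 6 genes, all lower with TRPML3 (H2AC6, H2AC13, H2AC15, H2BC26, H4C8 and H4C15), where 3.87% of all genes were lower and 3.22% higher without overlap.

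The direction over the tested genes rested on 1 library. The median log2 fold change of the 44 was -0.646 and 37 were below 0, against a median of -0.00944 over all genes, 48.9% of which were above 0. Without vector fed replicate 3 the median was 0.242 and 17 of 44 were below 0. With that library left out, 8 genes were lower without overlap, where 10.3% of all genes were: H1-2 and H2AC25 joined the 6 above, which cannot come to overlap when a library is removed. H1-4, H2AC20, H2BC11, H2BC12, H3C14, H3C15 and H4C3 were then higher without overlap, where 8.3% of all genes were.

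In starved cells, TRPML3 against vector gave no called gene (0.00555% of all genes called by edgeR) and 1 at an unadjusted p under 0.05, against 2.2% of all genes. That gene, H4C4, was at 0.661, 0.348 and 0.518 CPM in vector starved and 0.204, 0.0898 and 0.0579 in TRPML3 starved. Its groups did not overlap, and it held 142 counts in all 12 libraries. A single count is 0.0289 to 0.0299 CPM in the TRPML3 starved libraries, so its values there lie near the floor of 3 counts. Its log2 fold change was -2.09 ± 0.84 (SE, edgeR Benjamini-Hochberg adjusted p = 1). Lower without overlap were H2AC6, H2AC25, H3C10, H4C4 and H4C14 (3.56% of all genes), and H2AC12 was higher (3.02%). The median of the 44 was -0.209 with 13 above 0, against 49.2% of all genes. Without vector starved replicate 3 the median was 0.141, and 27 of the 46 genes then tested were above 0.

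Starvation was then compared with feeding within each plasmid. In vector cells no gene was called and 0 were at an unadjusted p under 0.05, where edgeR called 0.00555% of all genes and 4.44% were at that p. H4C14 and H4C15, the pair that cannot be told apart, were higher without overlap (5.36% of all genes) and none was lower (4.57%). The median log2 fold change was 0.128, with 29 of 44 above 0, as were 49.4% of all genes. Without vector fed replicate 3 it was 0.809, with 39 above 0. It was -0.102 without vector starved replicate 3 and -0.0924 without vector fed replicate 2, with 18 of 46 above 0 in each, and -0.00646 without vector fed replicate 1.

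In TRPML3 cells edgeR called no gene after Benjamini-Hochberg adjustment (0% of all genes), and 3 were at an unadjusted p under 0.05, all higher, against 5.71% of all genes. H4C8, at 0.504, 0.599 and 0.489 CPM fed and 1.78, 2.28 and 1.42 starved, had a log2 fold change of 1.77 ± 0.48 (SE, edgeR adjusted p = 0.812). H4C15 had 0.61 ± 0.24 (edgeR adjusted p = 0.853) and H4C14 0.60 ± 0.25 (adjusted p = 0.862), for what is close to 1 measurement. Higher without overlap were 10 genes (H1-2, H1-4, H2AC13, H2AC18, H2AC19, H4C5, H4C8, H4C14, H4C15 and H4C16), where 5.56% of all genes were, and H4C4 was lower (5.66%).

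The median over the 44 in TRPML3 cells was 0.544, with 39 above 0, and all 3 H1, 12 of 13 H2A, 9 of 11 H2B, 5 of 6 H3 and 10 of 11 H4 genes were above 0. Over all genes 51.2% were above 0. The count ran from 32 to 41 when libraries were left out, including 35 of the 46 then tested without TRPML3 fed replicate 1, where the median was 0.324. Non-polyadenylated RNAs were also higher in all 3 starved than in all 3 fed TRPML3 libraries, at 130.4 ± 29.4 against 63.7 ± 28.5 raw CPM (SD, n = 3). Of the 14 tested singly, 8 were above 0 and 6 below, with a median of 0.243, and their part in the histone values was not tested. The known polyadenylated genes had a median of 0.157. MCOLN3 shares also differed between the TRPML3 fed and TRPML3 starved libraries, and the part of that difference in the histone values was not tested.

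**Figure D5:**
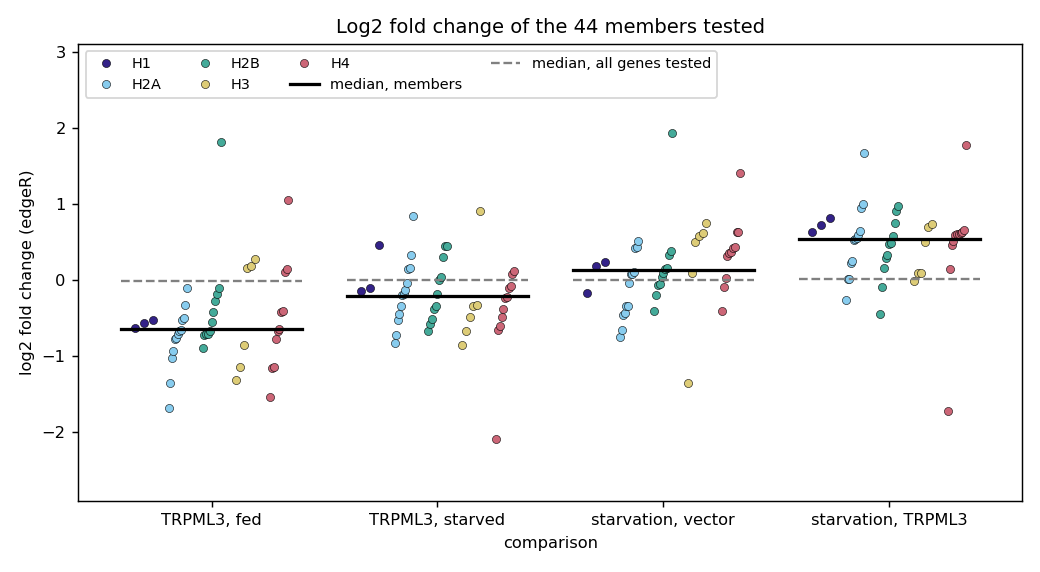
EdgeR log2 fold change (vertical axis) of the 44 clustered histone genes tested, one point a gene colored by class, in 4 comparisons (horizontal axis). Solid bars are the median of these genes and dashed bars that of all genes tested, and only starvation in TRPML3 cells keeps a median of that sign under each library left out.

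The interaction, which asks whether starvation acts differently with TRPML3, called no gene (0% of all genes by edgeR), and 2 were at an unadjusted p under 0.05, against 2.07%. H4C4 had -3.13 ± 1.17 (SE, edgeR adjusted p = 1.0) and H4C8 1.45 ± 0.65 (adjusted p = 1.0). In vector fed replicate 3, H4C4 was at 0.0287 CPM, the level of a single count. Above 0 were 34 of the 44 and 50.1% of all genes, and 15 of the 44 without vector fed replicate 3. The average starvation effect also called none (0%), 3 were at an unadjusted p under 0.05 (9.45% of all genes), and 38 were above 0 (50.7%). Of these, H4C8 (1.05 ± 0.33), H4C15 (0.51 ± 0.17) and H4C14 (0.52 ± 0.18) had edgeR adjusted p-values of 0.369, 0.393 and 0.418. None had all starved libraries above all fed ones (0.754% of all genes) or below them (0.499%). The average TRPML3 effect called none (0.0111% of all genes), and 3 were at an unadjusted p under 0.05 (2.62%). These were H2AC6 at -0.75 ± 0.24, H2BC26 at -0.61 ± 0.24 and H4C8 at -0.81 ± 0.33 (edgeR adjusted p = 1.0 for each). Above 0 were 6 of the 44 and 48.1% of all genes, and 20 of the 44 without vector fed replicate 3. H2AC6 alone was lower in every TRPML3 library, and none was higher in every one (0.061% of all genes). Precision was low: the median SE of a log2 fold change was 0.714 over these genes and 0.447 over all genes tested.

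Genes that work on histone RNA or with histones were set beside these values, none of them called after adjustment in any comparison. Of the 25 factors of histone 3′ ends, 4 were at an unadjusted p under 0.05 and higher in the average starvation effect and 2 lower, where 9.45% of all genes were at that p in either direction. CSTF2, a cleavage factor, was at 0.64 ± 0.21 (SE, edgeR Benjamini-Hochberg adjusted p = 0.391), and NPAT, a coactivator of histone genes, at -0.65 ± 0.26 (adjusted p = 0.466). SLBP was at 49.9, 75.3 and 83.0 CPM fed and 99.2, 92.8 and 40.1 starved with vector, and at 67.9, 85.1 and 94.98 fed and 86.3, 84.2 and 60.2 starved with TRPML3. Its groups overlapped throughout, and its average starvation effect was 0.03 ± 0.24.

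Clustered histone genes are usually made in S phase. Over 39 of the 40 listed S phase genes the ratio of that library to the mean of the other vector fed libraries had a median of 1.12, and 1 was above 2. Their median difference was 0.0225 (log2) with TRPML3 under serum and 0.101 after starvation of TRPML3 cells. MCM7, a replication helicase subunit, was at 0.47 ± 0.11 in the average starvation effect (edgeR Benjamini-Hochberg adjusted p = 0.347), and POLE, the catalytic subunit of DNA polymerase epsilon, at -0.44 ± 0.17 (adjusted p = 0.451). Above 0 in that effect were 20 of the 39, with a median of 0.00678. The 19 histone chaperones had a median ratio of 1.13 with 4 above 2, and CHAF1A, a subunit of the CAF-1 chaperone, was at 0.69 ± 0.22 for starvation (edgeR adjusted p = 0.381). MMS22L, a partner in histone handling at replication forks, was at -0.83 ± 0.29 (edgeR adjusted p = 0.427), and 14 of the 19 were above 0. The 12 replacement histones had a median ratio of 0.877 with none above 2. H3-3B and H2AZ1 were at 0.35 ± 0.12 and 0.34 ± 0.13 for starvation (edgeR adjusted p = 0.415 and 0.446).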

How the data were processed

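RNA was measured by polyA RNA-seq in 12 HEK293T libraries. The raw counts per gene were deposited by the authors for 41878 rows, and the authors' normalized signal, also deposited, was used only in an alternative. Per the submitters' processing notes, FastQC, fastp, HISAT2, StringTie, DESeq2 and GRCh38 were used; their roles, the annotation and the use of strand are not given in the sources used here. Reads of near-identical or overlapping genes may therefore be divided in unknown ways.

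From the raw counts, genes were tested with edgeR 4.0.16 in R 4.3.3 (TMM, filterByExpr, robust quasi-likelihood fit to all 12 libraries, 8 residual degrees of freedom, Benjamini-Hochberg over 18030 genes at 0.05). Shares are of the raw library total, with Wilson 95% intervals. The script was tested on simulated counts with a smaller spread between replicates than in these data. That test does not show which changes could be detected in the clustered histone genes. Promoters came from RefSeq and transcripts from GENCODE 29; the deposited rows were joined by symbol or identifier.

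Genes were named by rule: the 3 with the highest mean CPM in each class, germline and known polyadenylated genes, SLBP, up to 3 genes per comparison with the smallest p under 0.05, and up to 3 of each other list in the average effects. Genes described for the ratio in vector fed replicate 3 or for non-overlapping libraries were chosen after their values were seen. The members and lists were chosen with earlier results of these data known. Alternatives were DESeq2 1.42.0 (Wald test and size factors), limma 3.58.1, other filters and scalings, the replicate block and each library left out.

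Replicate numbers were checked for pairing: deviations from group means over all genes gave r of 0.11, 0.15 and 0.33 between vector and TRPML3 fed libraries, 0.13, 0.095 and 0.32 between the starved ones, and -0.076 to 0.0075 between serum states.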

Additional observations from a re-analysis of the deposited data

How the results depend on the processing

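No clustered histone gene was called at an adjusted p of 0.05 in any of the 7 comparisons, nor under DESeq2, limma, other filters, other scalings or any library left out. At an unadjusted p under 0.05 there were 2 with TRPML3 under serum and 1 without it, 0 and 3 after starvation of vector and of TRPML3 cells, 2 in the interaction, and 3 in each average effect. The shares of all genes at that p were 2.21%, 2.2%, 4.44%, 5.71% and 2.07% in the same order. They were 9.45% in average starvation and 2.62% in average TRPML3. With the replicate number as a block the count of called genes stayed 0 in each, and the blocked log2 ratio of the summed share was -0.589 for TRPML3 in fed cells and 0.511 for starvation in TRPML3 cells.

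The log2 ratio of the summed share was -0.657 for TRPML3 in fed cells, -0.191 with medians in place of means, and -1.01 to -0.204 with libraries left out (-0.891 without vector fed replicate 2 and -0.204 without replicate 3). For starvation in vector cells it was 0.0557, 0.544 with medians, and -0.282 to 0.510 (-0.178 without vector fed replicate 2 and 0.510 without replicate 3). For the interaction it was 0.423, -0.226 with medians, and -0.0312 to 0.874 (0.656 without vector fed replicate 2 and -0.0312 without replicate 3). The other ranges were -0.471 to -0.0699 (TRPML3 starved), 0.288 to 0.599 (starvation in TRPML3 cells), 0.150 to 0.494 (average starvation) and -0.575 to -0.183 (average TRPML3). The cause of these shifts was not tested beyond the libraries named.

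Of the tested genes, those above 0 numbered 7 in TRPML3 fed (2 to 27 with libraries left out, after the data were seen), 13 in TRPML3 starved (7 to 27, and 8 without replicate 1 of all groups), 29 for starvation in vector cells (14 to 39, and 18 without vector fed replicate 2), 39 in TRPML3 cells (32 to 41), 34 for the interaction (15 to 41), 38 for average starvation (31 to 42) and 6 for average TRPML3 (2 to 21). Of the single libraries, vector fed replicate 3 moved TRPML3 fed, the interaction and average TRPML3 most, with 27, 15 and 20 above 0 without it. For starvation in vector cells, 39 of 44 were above 0 without vector fed replicate 3. In that comparison 18 of 46 were above 0 without vector fed replicate 2, and 18 of 46 without vector starved replicate 3. The log2 fold changes given for H4C8, H2AC6, H4C4, H4C15, H4C14 and H2BC26 kept their sign under every alternative in which they were fitted. These genes were named for their small p in these same data, many with libraries that did not overlap. Their sign was therefore close to fixed in advance and gives no separate support. The genes of the other lists were not refitted. The 16 genes with at most 110 counts in all 12 libraries fell below the expression filter.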
